A study of Sus scrofa with 8 samples.

Results

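MHC class I molecules show fragments of a cell's own proteins to CD8 T cells. Proteasomes cut the proteins, the TAP1/TAP2 transporter carries the peptides into the endoplasmic reticulum, ERAP1 trims them there, and tapasin (TAPBP) holds empty class I molecules beside the transporter while they load. In an inflamed or interferon-exposed tissue the catalytic subunits PSMB8, PSMB9 and PSMB10 replace the constitutive ones to form the immunoproteasome, and NLRC5 switches on class I genes. The MHC class I processing genes described here were chosen by symbol: B2M, TAP1, TAP2, TAPBP, PSMB8, PSMB9, PSMB10, NLRC5 and ERAP1. Of these 9, 8 were matched to an Ensembl gene among the 31907 genes counted, and all 8 passed the low-count filter that left 16549 genes to test. B2M, the class I light chain, was not analysed here, and neither were the classical swine class I heavy chains.

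The donors were 8-month-old Guizhou minipigs. In a neobladder operation a piece of ileum is made into a new bladder, and the series concerned replacing its mucosa with the animal's own peritoneum. There were 4 groups of 2 libraries: mucosa of the normal bladder (MNB, native bladder), mucosa of the neobladder in the experimental group (MN-Exp), mucosa of the neobladder in the control group (MN-Ctrl) and normal peritoneum (NP). The labels name no drug or allele. How the control neobladder was lined, when the mucosa was taken and whether replicates were separate animals are not given in the sources used here, so p-values measure only the spread between these samples, which may be technical.

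Library totals ran from 7.94 to 11.88 M counts. The control neobladder libraries stood apart: their TMM factors (trimmed mean of M-values, the scaling between libraries) were 0.839 and 0.450, against 1.09 to 1.24 in the other 6 libraries, and their log2 levels correlated with each other across genes at r = 0.920, against 0.940 to 0.972 within the other groups. Levels below are counts per M counts (CPM) on the TMM scale, and mean ± SD values have n = 2. Defining markers fitted most labels. Summed ileal epithelial markers were 39262 and 160944 CPM in control neobladder and at most 49.8 CPM in any other library, and summed urothelial markers were 9486 and 8524 CPM in native bladder, 3972 and 8130 in experimental neobladder, 55.7 and 148 in control neobladder, and 475 and 938 in peritoneum. In peritoneum 2 of the 6 mesothelial markers were found in the files: WT1 was at 27.7 and 25.3 CPM, and CALB2 had no count in any library. All values are bulk values, in which fewer cells of a type and less RNA per cell cannot be told apart.

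Control neobladder mucosa carried the highest mean level of each of the 8 genes on the TMM scale, and on library totals of all but TAPBP, which was higher in native bladder, and NLRC5, which was higher in peritoneum. Levels of 6 of them (TAP1, TAP2, PSMB8, PSMB9, PSMB10 and ERAP1) were lower in experimental than in control neobladder. Their group means differed by 4.06 to 30.7 fold, and in each both experimental libraries lay below both control libraries. The share of all genes separated in this way is not given here, nor for the other separations below. Experimental neobladder and native bladder were not separated by the test for any member, where only 0.0967% of all genes tested were called. PSMB9, PSMB8 and TAP1 had the largest fold changes among the members, followed by PSMB10, ERAP1 and TAP2, while TAPBP and NLRC5 overlapped between the neobladders.

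**Figure D1:**
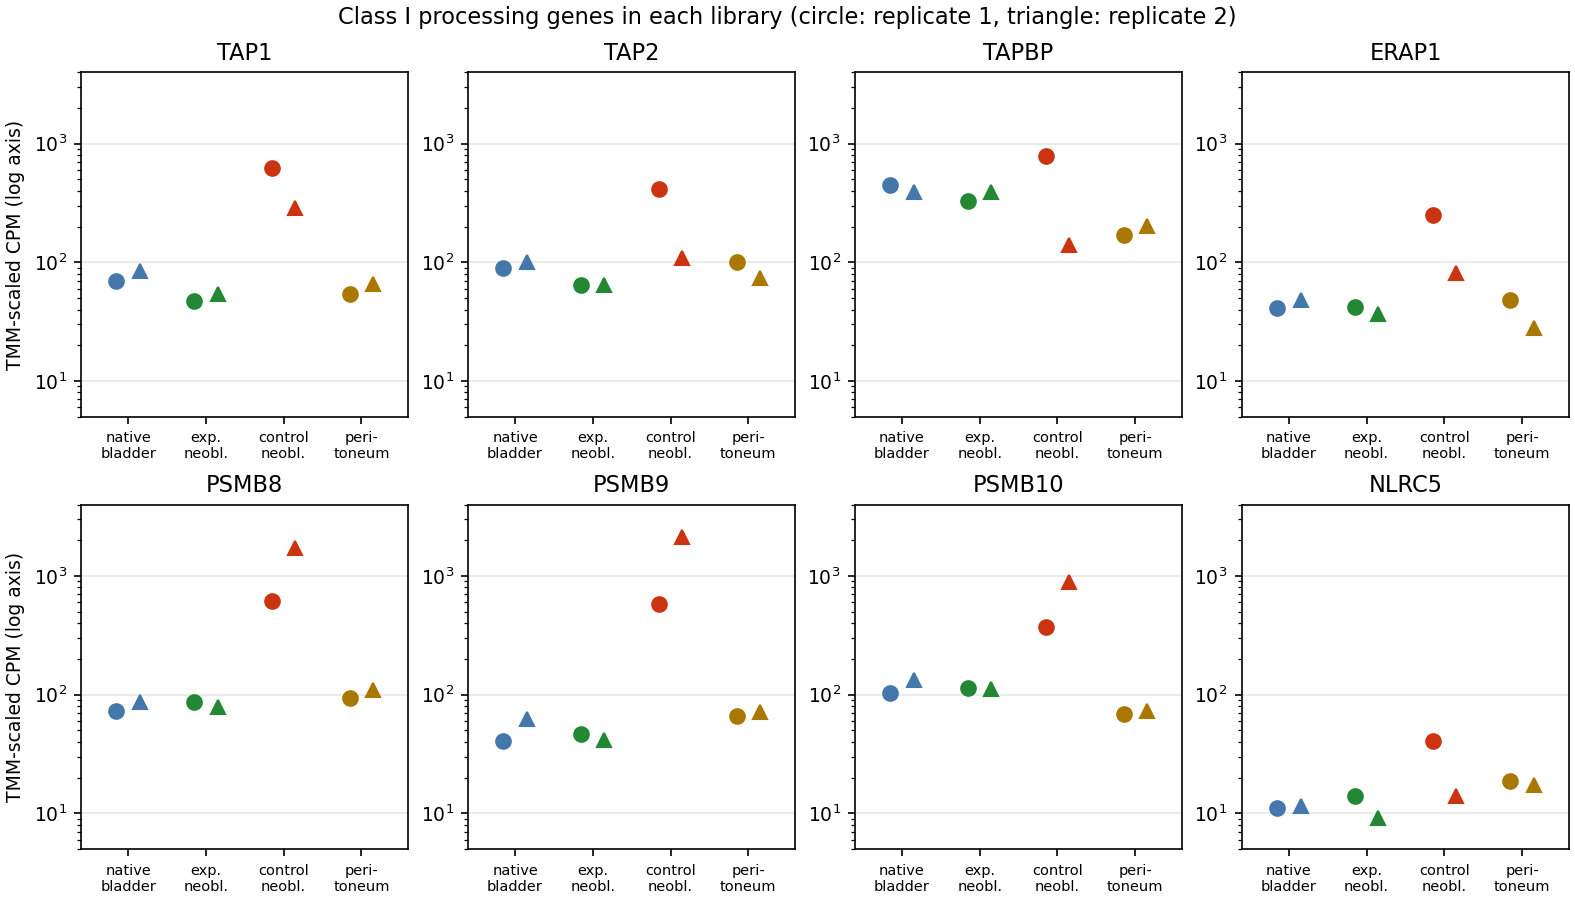
Scaled CPM (log axis) of the 8 MHC class I processing genes, with a point for each of the 8 libraries. PSMB8, PSMB9 and PSMB10 are high in both control neobladder libraries, whereas TAPBP in control neobladder spans from 140 to 793 CPM.

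PSMB9, the immunoproteasome subunit that takes the place of PSMB6, was at 40.5 and 62.7 CPM in native bladder, 46.8 and 41.8 in experimental neobladder, 584 and 2132 in control neobladder, and 65.6 and 70.9 in peritoneum. Both control libraries lay far above the other 6. The mean in control neobladder, 1358 ± 1095 CPM, was 30.7 times the 44.3 ± 3.57 CPM of experimental neobladder. In edgeR's quasi-likelihood test with Benjamini-Hochberg adjustment over all genes, the log2 fold change of experimental against control neobladder was -4.94 (SE 0.67, adjusted p = 0.000725).

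PSMB8, the chymotrypsin-like immunoproteasome subunit, was at 72.6 and 87.1 CPM in native bladder, 86.5 and 78.8 in experimental neobladder, 610 and 1705 in control neobladder, and 94.3 and 110 in peritoneum. Its 2 control libraries again exceeded all others. The mean was 1157 ± 775 CPM in control and 82.7 ± 5.45 CPM in experimental neobladder, a log2 fold change of -3.81 (SE 0.56, edgeR adjusted p = 0.00113).

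PSMB10, the trypsin-like immunoproteasome subunit, was at 102 and 132 CPM in native bladder, 114 and 111 in experimental neobladder, 368 and 881 in control neobladder, and 68.0 and 73.1 in peritoneum. Control neobladder was highest and peritoneum lowest, with no overlap of either with the remaining libraries. The control mean of 625 ± 363 CPM stood against 113 ± 2.42 CPM in experimental neobladder (log2 fold change -2.47, SE 0.48, edgeR adjusted p = 0.00528).

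TAP1, a subunit of the peptide transporter, was at 69.9 and 84.2 CPM in native bladder, 46.8 and 54.1 in experimental neobladder, 618 and 286 in control neobladder, and 54.0 and 65.9 in peritoneum. Both control libraries were the highest, and the experimental libraries lay below both native bladder libraries. Its means were 452 ± 235 CPM in control and 50.4 ± 5.14 CPM in experimental neobladder, which gave a log2 fold change of -3.16 (SE 0.47, edgeR adjusted p = 0.00111).

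TAP2, the partner subunit, was at 89.0 and 99.8 CPM in native bladder, 64.2 and 64.5 in experimental neobladder, 412 and 110 in control neobladder, and 100.4 and 73.9 in peritoneum. The lower control library was close to the higher peritoneum library. Mean levels were 261 ± 214 CPM in control and 64.4 ± 0.21 CPM in experimental neobladder (log2 fold change -2.02, SE 0.55, edgeR adjusted p = 0.0268).

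ERAP1, the trimming aminopeptidase, was at 41.1 and 48.5 CPM in native bladder, 42.0 and 36.4 in experimental neobladder, 249 and 81.2 in control neobladder, and 48.2 and 27.9 in peritoneum. The control libraries were above the other 6, which overlapped with one another. Means of 165 ± 118 CPM in control and 39.2 ± 3.95 CPM in experimental neobladder gave a log2 fold change of -2.07 (SE 0.52, edgeR adjusted p = 0.019).

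TAPBP was at 449 and 390 CPM in native bladder, 331 and 393 in experimental neobladder, 793 and 140 in control neobladder, and 171 and 202 in peritoneum. Its highest and its lowest library were both control neobladder. The log2 fold change of experimental against control neobladder was -0.37, with a 95% interval from -1.81 to 1.07 (edgeR adjusted p = 0.721). Without control replicate 1 that value was 1.40, and without control replicate 2 it was -1.13, so the library kept sets its direction. Each of these runs holds only 1 control library, so no p-value is given.

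NLRC5 was the least abundant member at 11.1 and 11.6 CPM in native bladder, 14.1 and 9.17 in experimental neobladder, 40.8 and 13.8 in control neobladder, and 18.6 and 17.3 in peritoneum. Control replicate 2 fell inside the range of the other groups. The difference between the neobladders was -1.24 on the log2 scale (95% interval -2.35 to -0.14) and did not pass after adjustment (edgeR adjusted p = 0.102). With control replicate 2 left out it was -1.80, and with control replicate 1 left out it was -0.23, each from a run with only 1 control library.

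In all, 6 of the 8 genes were lower in experimental than in control neobladder at an adjusted p under 0.05, where 11.3% of all genes tested were lower, 10.4% higher and 21.7% either. Their median log2 fold change was -2.27, against 0.11 over all genes. Without experimental replicate 1, or without experimental replicate 2, 3 members stayed past the threshold: TAP1, PSMB8 and PSMB9. On library totals without TMM, 4 members stayed past it, TAP2 being at -1.46 (adjusted p = 0.157) and ERAP1 at -1.48 (adjusted p = 0.142). That scaling moved the median of all genes to 0.89 and the share of called genes that were higher in experimental neobladder from 48.0 to 77.0%.

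Against native bladder, 5 of the 8 were higher in control neobladder (background 11.2% of all genes higher, 11.1% lower and 22.3% either): PSMB9 by 4.72 on the log2 scale (edgeR adjusted p = 0.000868), PSMB8 by 3.86 (0.00106), TAP1 by 2.55 (0.00325), PSMB10 by 2.41 (0.00599) and ERAP1 by 1.88 (0.0276). TAP2 was at 1.47 (0.0767), NLRC5 at 1.28 (0.0907) and TAPBP at 0.15 (0.887). The members' median was 1.99 without native bladder replicate 1, 1.35 without control replicate 1 and 2.30 without control replicate 2. With all libraries the members' median was 2.15, against -0.11 over all genes. On library totals alone 4 of the 8 were called higher, with a median of 1.27. That scaling moved the share of called genes that were higher from 50.4 to 18.7%.

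Against peritoneum, 6 of the 8 were higher in control neobladder, where 21.6% of all genes were higher, 20.6% lower and 42.3% either. PSMB9 was higher by 4.31 on the log2 scale (edgeR adjusted p = 0.000645), PSMB8 by 3.50 (0.000833), PSMB10 by 3.15 (0.000813), TAP1 by 2.91 (0.000824), ERAP1 by 2.12 (0.00929) and TAP2 by 1.58 (0.0387). TAPBP was at 1.32 (0.129) and NLRC5 at 0.62 (0.332). The median was 2.52, against -0.06 over all genes. On library totals alone 4 of the 8 were called higher, with a median of 1.71. That scaling moved the share of called genes that were higher from 51.2 to 24.9%. These 3 comparisons share the control libraries and are not independent of one another.

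**Figure D2:**
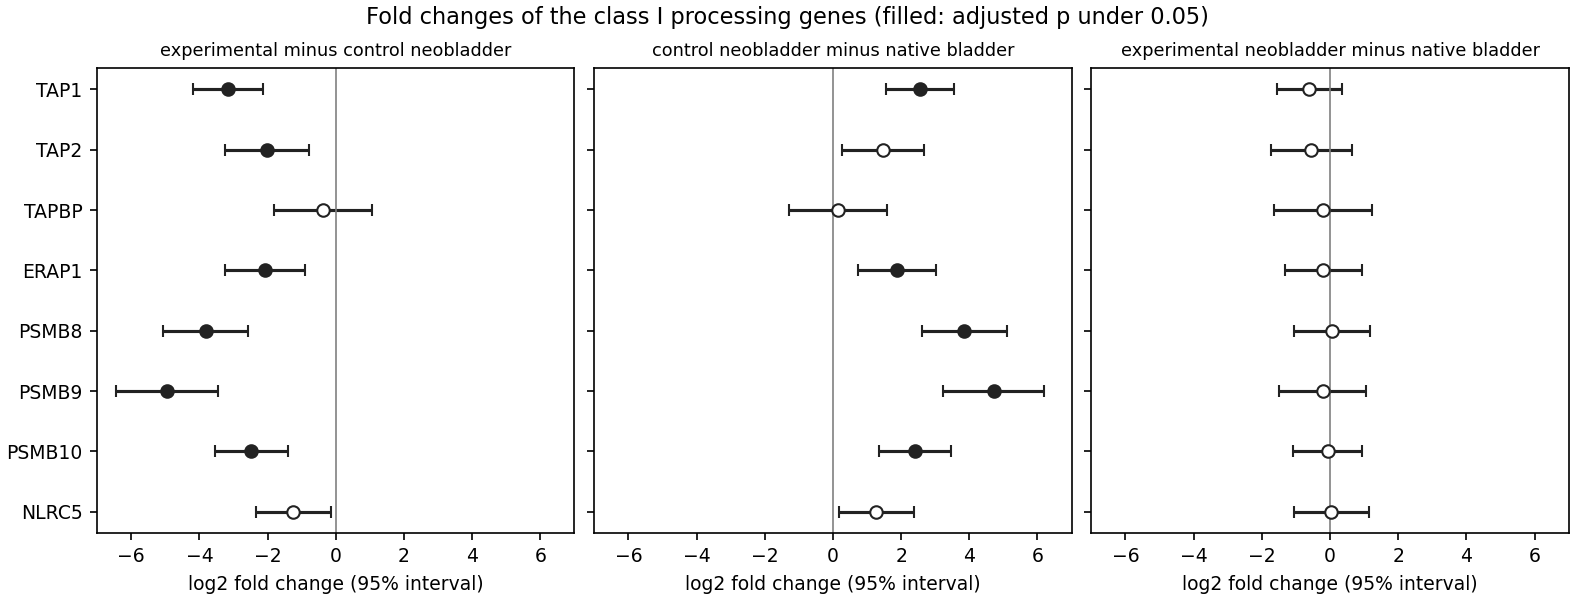
Log2 fold change of each member, with 95% intervals from the edgeR fit. The comparisons are experimental against control neobladder, and control and experimental neobladder each against native bladder. The values involving control neobladder lie away from 0 for the immunoproteasome subunits and TAP1, and the intervals of experimental neobladder against native bladder all span 0.

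Experimental neobladder against native bladder gave no call among the 8 genes by edgeR, by DESeq2 or at an unadjusted p under 0.05, and 0.0967% of all genes were called, 0.0423% higher and 0.0544% lower. The log2 fold changes ran from -0.61 for TAP1 (95% interval -1.57 to 0.34) to 0.05 for PSMB8 (-1.07 to 1.17). PSMB9 was at -0.22 (-1.49 to 1.05) and PSMB10 at -0.06 (-1.07 to 0.95). These intervals leave room for differences of about 1 log2 unit either way for most members, so the values do not show equal levels. TAP1 and TAP2 are the members whose experimental libraries both lay below both native bladder libraries, with TAP2 at -0.55 (-1.74 to 0.63).

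Peritoneum, the tissue the study used for lining, also gave no call in either direction against experimental neobladder (24.2% of all genes called, 12.4% higher and 11.8% lower) or native bladder (21.1% called, 9.93% higher and 11.1% lower in peritoneum), with 0 members at an unadjusted p under 0.05 and 0 by DESeq2 in each. TAPBP was at 0.96 and PSMB10 at 0.67 on the log2 scale in experimental neobladder against peritoneum, with both experimental libraries above both peritoneum libraries. TAP2 was at -0.44, PSMB8 at -0.31, PSMB9 at -0.62 and NLRC5 at -0.63, with both experimental libraries below both peritoneum libraries. Without control replicate 1, in a fit with only 1 control library, TAPBP was at 0.98 and PSMB10 at 0.70 in experimental neobladder against peritoneum. In the same run TAPBP was at -1.19 and PSMB10 at -0.76 in peritoneum against native bladder.

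The 2 control neobladder libraries split the members by type. Replicate 2 was above replicate 1 for the immunoproteasome subunits, with log2 ratios of 1.26 for PSMB10, 1.48 for PSMB8 and 1.87 for PSMB9, and below it for TAP1 (-1.11), NLRC5 (-1.55), ERAP1 (-1.61), TAP2 (-1.91) and TAPBP (-2.50). In the other 3 groups the members' log2 ratios lay between -0.79 and 0.63. The split also followed gene length: the 3 subunits span 2.70 to 5.38 kb in the RefSeq annotation of Sscrofa11.1, and the other 5 members 9.22 to 103 kb. Across the 11655 genes with a known span, the median log2 ratio of control replicate 2 to replicate 1 was 0.75 for genes under 6 kb and -0.29 for genes over 9 kb. The Spearman rho of that ratio with span was -0.319, against -0.118 in experimental neobladder, -0.083 in native bladder and 0.011 in peritoneum, a description across genes that are not independent. Its part in the members' differences was not tested. In control replicate 1, all 8 members were above both experimental libraries, but the share of all genes in this order is not given here.

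**Figure D3:**
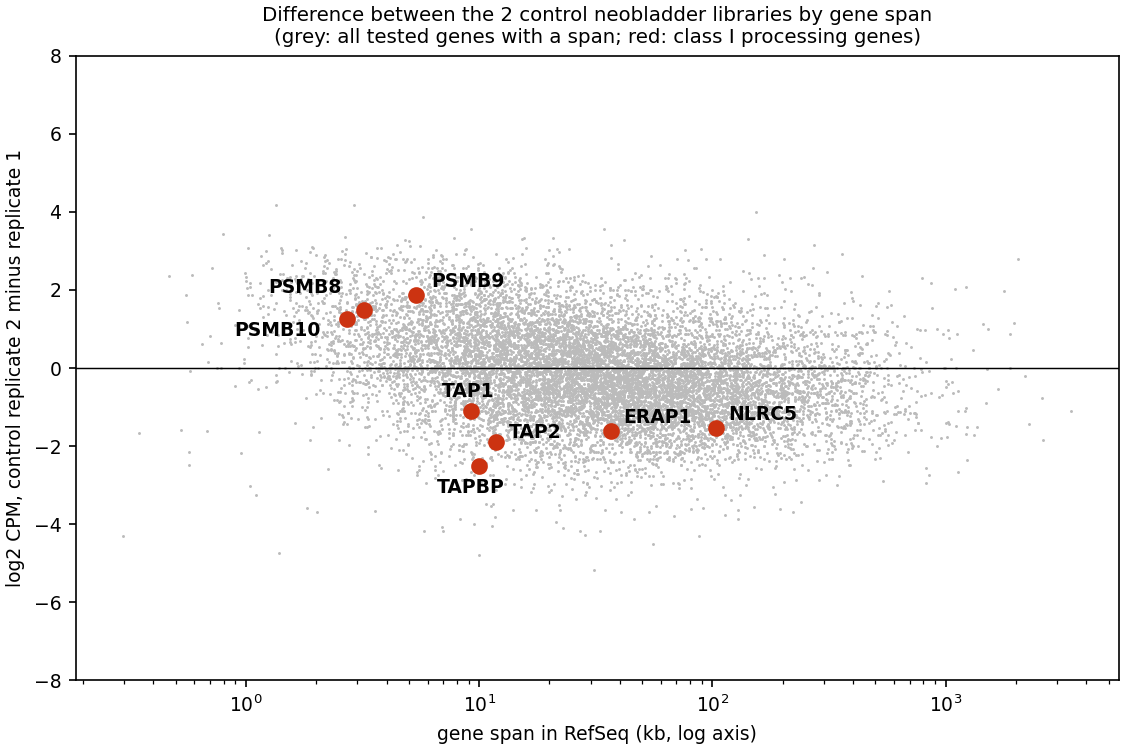
Log2 ratio of the control neobladder libraries (replicate 2 over replicate 1) against gene span in kb (log axis), with the 8 members named over all genes with a span. The 3 immunoproteasome subunits lie above 0 at spans of 2.70 to 5.38 kb, and the other 5 members lie below 0.

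PSMB9, TAP1, PSMB8 and TAP2 are neighbours in the class II part of the swine MHC. In the RefSeq annotation of Sscrofa11.1, TAP2 lies at chr7:25045085-25056915, PSMB8 at chr7:25058456-25061666, TAP1 at chr7:25062772-25071989 and PSMB9 at chr7:25072133-25077508. The gap between TAP1 and PSMB9 is 143 bases. TAPBP is further along the chromosome at chr7:29663491-29673453, where it overlaps ZBTB22, PSMB10 lies at chr6:28544910-28547609, NLRC5 at chr6:18933179-19036288, and ERAP1 at chr2:103378428-103415066, where it overlaps CAST. Whether counting used strand is not given in the sources used here, so reads of TAPBP and ERAP1 may not be separable from those of the overlapping genes. The neighbours TAP1 and PSMB9 moved in opposite directions between the control replicates (-1.11 and 1.87).

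To set the immunoproteasome against the rest of the particle within each library, counts of each subunit were taken per 100 counts of 10 other subunits of the proteasome core, a measure chosen after the data had been seen. PSMB9 was at 1.97 and 2.91 in native bladder, 2.03 and 1.65 in experimental neobladder, 22.8 and 29.3 in control neobladder, and 5.17 and 6.05 in peritoneum. PSMB8 was at 3.52 and 4.04, 3.76 and 3.11, 23.9 and 23.5, and 7.43 and 9.40 in the same order. The control libraries lay far above the rest for both, and for PSMB8 they were close to each other. Core counts were 12481 and 13168 in peritoneum, 25537 and 28882 in native bladder, and 27186 and 27340 in experimental neobladder. They were 23503 and 38833 in control neobladder. An exact permutation test over the 2520 assignments of libraries to groups gave p = 0.0190 for each (adjusted over the 3 subunits, 0.0286). The smallest p the design allows is 0.00952, and the test is of any difference among the groups, not of control neobladder against another group. PSMB10 was at 4.97 and 6.15 in native bladder, 4.97 and 4.38 in experimental neobladder, 14.4 and 12.1 in control neobladder, and 5.35 and 6.23 in peritoneum (exact p = 0.0381, adjusted 0.0381). Without experimental replicate 1 the exact permutation test for PSMB10 gave p = 0.0571, without experimental replicate 2 it gave 0.0952, and without peritoneum replicate 2 it gave 0.0857. The difference of experimental from control neobladder in these shares was -3.82 for PSMB9, -2.79 for PSMB8 and -1.50 for PSMB10 on the log2 scale.

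**Figure D4:**
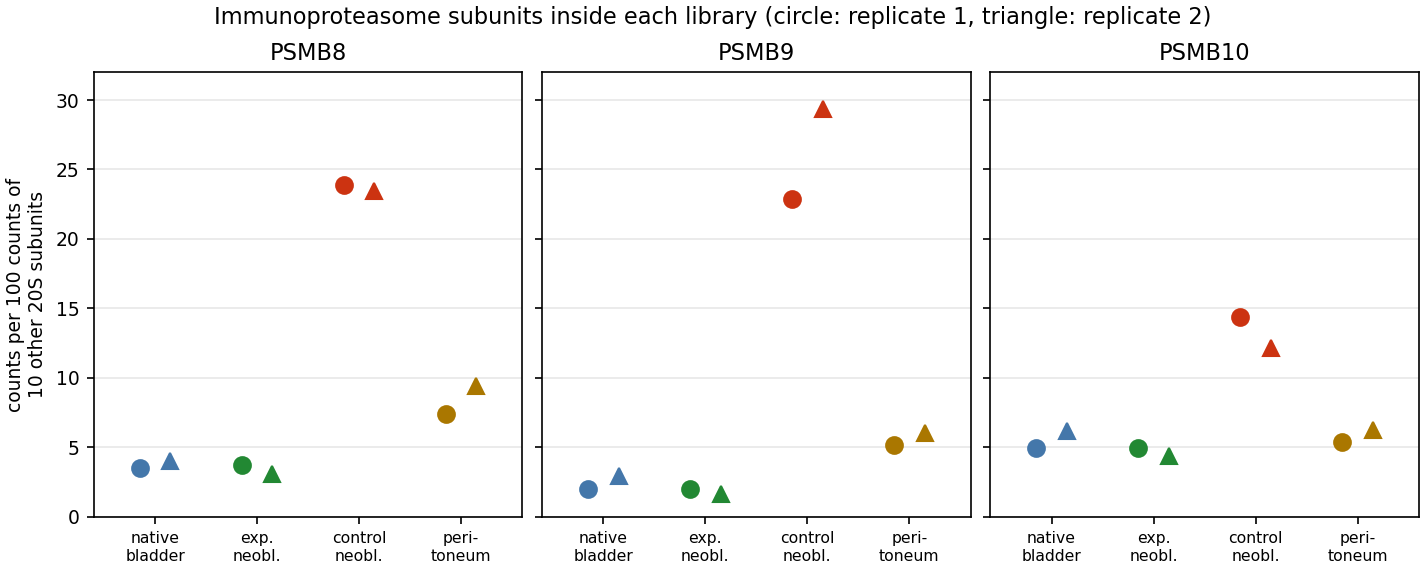
Counts of PSMB8, PSMB9 and PSMB10 per 100 counts of 10 other core proteasome subunits in each library (linear axis). For each subunit the 2 control neobladder points lie above the other 6, with PSMB8 at 23.9 and 23.5.

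PSMB7, the constitutive subunit that PSMB10 replaces, was at 76.0 and 74.1 CPM in native bladder, 90.1 and 92.9 in experimental neobladder, 96.0 and 415 in control neobladder, and 65.7 and 50.6 in peritoneum. The ratio of PSMB10 to PSMB7 counts was 1.35 and 1.79 in native bladder, 1.27 and 1.19 in experimental neobladder, 3.84 and 2.12 in control neobladder, and 1.03 and 1.44 in peritoneum (exact permutation p = 0.0667). Both control ratios were the highest, but the test did not pass. The constitutive partners of PSMB8 and PSMB9 were not analysed here. Of the 10 core subunits 1 fell in experimental against control neobladder (PSMA2, -1.75, edgeR adjusted p = 0.0440), and 10 of 10 were higher in control neobladder than in peritoneum. The fall of PSMA2 was lost with any other library left out than control replicate 1, without which 10 of 10 fell; against peritoneum 3 passed without peritoneum replicate 1 and 4 without peritoneum replicate 2 or on library totals. None of 17 subunits of the 19S cap passed in experimental against control neobladder (0 at an unadjusted p under 0.05, 0 by DESeq2), but without control replicate 1, 3 rose and 5 fell, and on library totals or without control replicate 2, 1 rose.

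Among 7 proteasome activators and assembly factors, 1 fell in experimental against control neobladder. PSME2, a subunit of the interferon-inducible PA28 activator, was at 22.2 and 27.6 CPM in experimental and 81.1 and 300.1 in control neobladder (log2 fold change -2.94, edgeR adjusted p = 0.0072). PSME1, its partner, was at -1.68 (0.0541). Without experimental replicate 1, or without experimental replicate 2, none of the 7 passed, and without control replicate 1, 2 rose and 3 fell. Of 12 other genes of peptide trimming and class I loading, 2 fell and 1 rose. The chaperone calreticulin (CALR) was at 290 and 349 CPM in experimental and 1279.6 and 1495 in control neobladder (-2.12, 0.0074), and ERAP2, the sister of ERAP1, was at -1.68 (0.0356). THOP1, a cytosolic peptidase that can destroy peptides, was at 93.3 and 134 CPM in experimental and 24.1 and 16.8 in control neobladder (2.47, 0.0018). It was at 126 and 135 CPM in native bladder. Among the 12, 1 rise and no fall passed on library totals, without experimental replicate 1 or without experimental replicate 2. Without control replicate 1 there were 4 rises and 1 fall, and without control replicate 2 there were 1 rise and 5 falls.

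Of 3 class I-like heavy chains, 2 fell and 1 rose. HFE, a regulator of iron uptake, was at 25.4 and 18.9 CPM in experimental and 71.1 and 115 in control neobladder (-2.07, edgeR adjusted p = 0.0047). FCGRT, the neonatal Fc receptor, was at -1.34 (0.0480). MR1, which presents vitamin B metabolites to MAIT cells, was at 33.9 and 35.9 CPM in experimental and 12.8 and 10.3 in control neobladder (1.59, 0.0486), and its experimental libraries were the highest of all 8. Of the 3 genes 0 passed without experimental replicate 2, and the replicate block, any single native bladder library left out, or experimental replicate 1 left out each kept 1 fall and no rise. On library totals 1 rise and no fall passed.

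Interferon raises the immunoproteasome and transporter genes in textbook accounts, so other interferon-response genes were listed beside them. Of 18 interferon target genes 12 fell against control neobladder and none rose, with a median of -2.76 (0.11 over all genes). OAS1, an antiviral sensor, was at 3.47 and 3.52 CPM in experimental and 103 and 78.2 in control neobladder (-4.69, edgeR adjusted p = 0.0001). GBP1, a GTPase of cell-autonomous defence, was at 40.2 and 34.5 against 724 and 481 (-4.01), and UBE2L6, the ISG15-conjugating enzyme, at 31.7 and 35.2 against 199.5 and 395 (-3.15). GBP2 was at -3.59 and the chemokine CXCL11 at -5.54. Against native bladder 11 of the 18 were higher in control neobladder. The count of 12 was 9 without experimental replicate 1, without experimental replicate 2 and on library totals. The count of 11 was 5 without native bladder replicate 1, 7 without native bladder replicate 2 and 6 on library totals.

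Of 19 genes of interferon signalling, 4 fell and 1 rose in experimental against control neobladder. IRF1, which binds the promoters of class I genes, was at 128 and 138 CPM in experimental and 403 and 234 in control neobladder (-1.27, edgeR adjusted p = 0.0414), and IRF7 was at -1.32 (0.0470). SOCS3, a feedback inhibitor, rose by 2.23 (0.0393). IFNG, the gene of interferon-gamma, had 3 and 0 counts in experimental neobladder, 15 and 23 in control neobladder, 25 and 38 in native bladder and 0 and 0 in peritoneum (adjusted p = 0.0367 between the neobladders). No fall in this list stayed past the threshold on library totals or without any single native bladder or experimental library, 1 did with the replicate block or without either peritoneum library, and without control replicate 2, 7 did. Of 10 transcription factors of MHC genes 0 passed by edgeR (2 at an unadjusted p under 0.05) and 1 by DESeq2, among them CIITA (0.22) and RFX5 (-0.61).

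Class II presentation genes gave 4 falls among 9: the peptide exchangers SLA-DMA (-1.38) and SLA-DMB (-1.77), the protease CTSS (-1.79) and the reductase IFI30 (-1.37). HLA-DRA, a class II chain, was at -1.50 (edgeR adjusted p = 0.0536). No class II gene passed without experimental replicate 1, without experimental replicate 2 or on library totals, 2 did without any single native bladder or peritoneum library, all 9 did without control replicate 1, and 6 did without control replicate 2.

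**Figure D5:**
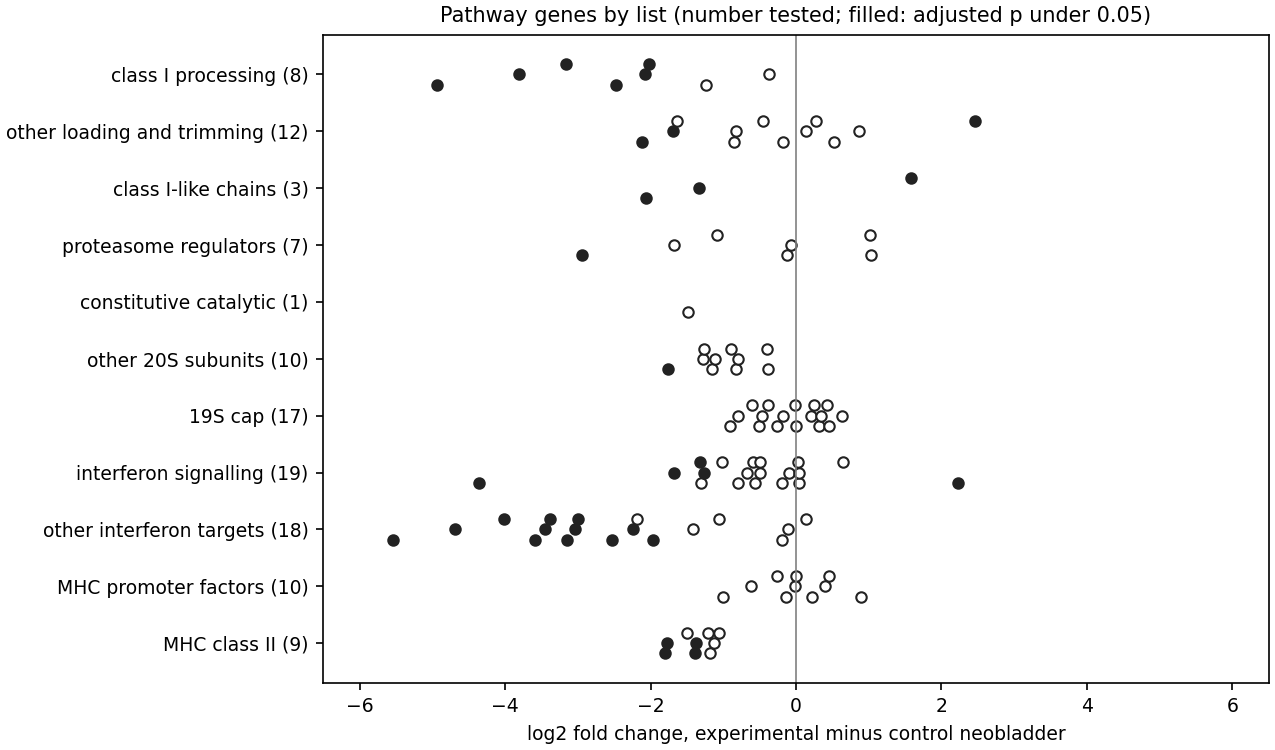
Log2 fold change of experimental against control neobladder for each gene of the members and of the lists of related genes, with filled points for those past an adjusted p under 0.05. Of the 18 interferon target genes 12 are filled below 0, and the 17 proteasome cap subunits are all open.

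Markers of other cells also differed between the neobladders, immune markers in the same direction as the members and endothelial markers in the opposite one. Summed T and NK cell markers (12 of 15 found) were at 530 and 816 CPM in control neobladder, 297 and 196 in experimental neobladder, 209 and 192 in native bladder and 112 and 123 in peritoneum, with NCR1 at 0 in control replicate 2 and CD4 at 0 in peritoneum replicate 1. B and plasma cell markers (9) were at 3160 and 9254, 2209 and 837, 1343 and 699.6, and 17.7 and 18.5 in the same order, with PAX5 at 0 in control replicate 2 and both peritoneum libraries, CD79B and MS4A1 among those at 0 in peritoneum replicate 1, and POU2AF1 at 0 in peritoneum replicate 2. Macrophage and dendritic cell markers (14 of 15) were at 4669 and 10069, 1863 and 1865, 1994 and 2292, and 1358 and 1826. Of these immune markers 6 of 12, 2 of 8 and 7 of 14 fell in experimental against control neobladder, and none rose. Without experimental replicate 2 these counts were 1, 0 and 0, without experimental replicate 1 they were 4, 1 and 3, without control replicate 2 they were 3, 0 and 9, and on library totals 1, 0 and 3. Endothelial markers (8 of 9 found) were at 248 and 211 CPM in control neobladder, 637 and 570 in experimental neobladder, 482 and 646 in native bladder and 2830 and 2102 in peritoneum. Of the 8 tested, 2 rose and none fell in experimental against control neobladder: PECAM1 (1.39, edgeR adjusted p = 0.047) and TIE1 (2.50, adjusted p = 0.0024). That count was 1 with any native bladder, peritoneum or experimental library left out, 6 without control replicate 1, and 4 without control replicate 2 or on library totals. The ileal epithelium also set control neobladder apart, as given above. The part of any of these in the members' levels was not tested.

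Members were compared in pattern over the 8 libraries. TAP1 correlated best with the mean of the other members (r = 0.98), followed by ERAP1 (0.96), TAP2 (0.89), PSMB8 and PSMB9 (0.78 each), PSMB10 (0.75), NLRC5 (0.67) and TAPBP (0.19). Pairwise r ran from -0.18 between TAPBP and PSMB9 to 0.998 between PSMB8 and PSMB9. Among 9856 other genes with a mean of at least 5 CPM, those most like the members' mean pattern were PARP3, MAOB and ENPEP (r = 0.99 each), and PEPD, CDHR2, A4GNT, PARP9 and SLC6A19 (0.98 each). ENPEP, a brush border peptidase, was at 1678 and 298 CPM in control neobladder and at most 8.54 elsewhere, and SLC6A19, an intestinal amino acid transporter, at 103 and 29.6 there and at most 0.075 elsewhere. PARP9, an interferon-induced gene, was at 35.6 and 22.6 against at most 7.11. CDHR2, A4GNT and SLC6A19 had at most 8 counts in any library outside control neobladder. They reached the mean of 5 CPM only through control neobladder, so their high r was largely set in advance. On library totals r was 0.859 for SLC6A19, 0.870 for CDHR2, 0.880 for A4GNT and 0.915 for ENPEP. It was 0.969 for MAOB, 0.976 for PEPD, and 0.978 for PARP3 and PARP9. All these correlations share the libraries, 2 of which are control neobladder, and no test was made.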

How the data were processed

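Per the labels, RNA was converted with Smart-seq2 and TruSeq and sequenced on an Illumina HiSeq system. The authors deposited raw counts per Ensembl gene, for which the submitters' processing notes name HTSeq 0.11.1, HISAT2, Trim Galore and the assembly Sscrofa11.1. Settings, annotation release and strand use are not given in the sources used here. The 8 libraries each hold 31907 genes, of which 15029 had a symbol in the name table, and all libraries were used.

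Counts were fitted with edgeR 4.0.16 in R 4.3.3: filterByExpr (16549 genes kept), TMM scaling, and 1 robust quasi-likelihood fit of all 8 libraries in 4 groups, with 4 residual degrees of freedom and a biological coefficient of variation of 0.382. Benjamini-Hochberg adjustment ran over all genes kept, and calls are adjusted p under 0.05. On the TMM scale, 3 counts equal 0.224 to 0.561 CPM, for counting error only. Subunit ratios used a pseudocount of 0.5 and an exact permutation test of any difference among the 4 groups. The planned ratios to the constitutive partners of PSMB8 and PSMB9 were not run because those genes were unmatched.

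The members and lists were chosen with earlier results of these data known. All members are named. From other lists, the up to 5 genes with the smallest p, the up to 3 of highest mean and a few set genes were eligible, though not every eligible gene is reported here. Patterns were compared by Pearson r on log2 CPM with a prior count of 2. Calls and fold changes were repeated with no low-count filter, on library totals, with a replicate block and without each library in turn. They were also repeated with DESeq2 1.42.0 and with the size factors of DESeq2 in edgeR. A run without 1 library leaves 1 library in that group. The spread in such a run came from the other groups, so its calls hold no measure of spread within that group. Subunit ratios and shares of the core were repeated without each library in turn, the ratio also with another pseudocount. Correlations of the genes most like the members were repeated on library totals only, and the comparisons with gene span were not repeated. The gene test was also run on simulated data that lacked the scaling shift of the control neobladder libraries, so that run does not bear on their calls.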

Additional observations from a re-analysis of the deposited data

How the results depend on the processing

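TAP1, PSMB8 and PSMB9 stayed past the threshold in experimental against control neobladder under every alternative run, with log2 fold changes from -3.61 to -2.48, from -4.34 to -2.79 and from -5.56 to -3.71. Leaving out 1 library at a time gave 3 to 8 members called in that comparison, 0 in experimental neobladder against native bladder, 2 to 8 in control neobladder against native bladder, 0 to 2 in experimental neobladder against peritoneum, 4 to 8 in control neobladder against peritoneum and 0 to 2 in peritoneum against native bladder. Over all genes the same runs gave, in that order, 1396 to 6358, 3 to 297, 1442 to 6485, 1762 to 6444, 4671 to 8279 and 1343 to 5795 calls, so the background moves as well. For experimental neobladder against native bladder all-gene calls were 16, against 200 with DESeq2, 5 on library totals and 352 with no low-count filter. Replicate differences showed little correlation between groups (r from -0.080 to 0.091), which does not settle whether the replicate numbers pair the samples. With a replicate block, members called were 6, 0, 5, 0, 6 and 0 in the order above, and all-gene calls in experimental neobladder against native bladder were 14. The PSMB10 share of the core differed between the neobladders by -1.63 to -1.38 with 1 library left out, and the PSMB10 to PSMB7 ratio by -1.64 to -0.79.

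Over 624 values of a member in a comparison under a setting, 560 kept direction and side of the threshold, 24 lost the call, 19 gained it and 21 changed sign. With 1 library left out at a time, TAPBP ran from -1.13 to 1.40 in experimental against control neobladder, from -1.60 to 0.92 in control neobladder against native bladder and from -0.41 to 2.11 in control neobladder against peritoneum, and NLRC5 in the last from -0.37 to 1.21. Against native bladder the experimental neobladder values ran from -0.072 to 0.20 for PSMB8, from -0.50 to 0.14 for PSMB9, from -0.23 to 0.14 for PSMB10 and from -0.30 to 0.31 for NLRC5. ERAP1 ran from -0.27 to 0.52 in experimental neobladder against peritoneum and from -0.71 to 0.056 in peritoneum against native bladder, where TAP2 ran from -0.37 to 0.039. On library totals TAPBP was 0.15 in experimental against control neobladder and -0.45 in control neobladder against native bladder, NLRC5 was -0.12 in control neobladder against peritoneum, PSMB8 -0.038 and NLRC5 -0.046 in experimental neobladder against native bladder, and ERAP1 -0.089 in experimental neobladder against peritoneum. With the replicate block NLRC5 was -0.027 in experimental neobladder and TAPBP -0.0096 in control neobladder, both against native bladder. The cause was not tested.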

Other observations

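CD8A, the co-receptor by which T cells bind class I molecules, did not follow the processing genes. It was at 60.9 and 40.7 CPM in experimental neobladder, 57.5 and 41.2 in control neobladder, 20.7 and 14.1 in native bladder and 4.37 and 7.39 in peritoneum. The log2 difference between the neobladders was 0.04 with a 95% interval from -0.86 to 0.94 (edgeR adjusted p = 0.956), while CD3D, a chain of the T cell receptor complex, fell by 2.06 (adjusted p = 0.00845). CD8A in experimental neobladder against native bladder was 1.55 (adjusted p = 0.297), and against peritoneum it was higher by 3.11 (adjusted p = 0.00084). These genes were singled out after their values were seen.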
